A study of Mus musculus with 12 samples.

Results

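The forkhead (Fox) genes encode transcription factors that share the forkhead DNA-binding domain, and 44 of the 21887 protein-coding mouse genes examined carry a symbol of Fox, a subfamily letter from a to s and a number. The symbol alone decided which genes belong, but the set was chosen with earlier results of these data known. Each gene was read over a window made of its gene body and 2 kb on both sides. The study used ChIP-seq, which sequences DNA precipitated with an antibody, to place INO80 and the histone variant H2A.Z in mouse spermatogenic cells taken from the testis on postnatal day 18 (12 libraries in 6 groups). Wild-type cells served for INO80, and H2A.Z was taken from Ino80WT cells, which have intact Ino80, and from Ino80cKO cells, with an input group for each. In Ino80cKO mice Ino80 is deleted in the testis by Stra8-Cre, in which a promoter active in germ cells before meiosis drives the recombinase, so that any somatic cells carried along from the tubules are not its target. All animals were of a mixed strain background, every group has 2 libraries, and the labels do not say whether these came from different animals.

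Forkhead factors bind DNA through a winged-helix fold, and several, among them the FoxA proteins, can bind sites in closed chromatin. FoxO proteins are kept out of the nucleus by signalling through PI3 kinase and AKT, and Foxo1 is known for the upkeep of spermatogonial stem cells. Many other family members are known for patterning organs of the embryo. INO80 is the ATPase of a remodelling complex that moves nucleosomes and can exchange H2A.Z, which marks nucleosomes near gene starts and enhancers.

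Each of the 3 ChIP groups is represented by 1 peak list that stands for both of its libraries, with 18139 peaks for INO80, 33827 for wild-type H2A.Z and 26199 for knockout H2A.Z. The lists give positions only, so the read depth behind them is unknown. There is no replicate error for any value, and no test between groups was possible. Intervals in parentheses are 95% Wilson intervals and cover counting error only. A peak listed in 1 genotype and not in the other can differ little in strength, and in bulk cells fewer marked cells and less mark per cell cannot be told apart. Chromatin had been cut with micrococcal nuclease, so peak outlines also follow nucleosomes. Wild-type H2A.Z lay at 8 of 8 germ cell marker genes, 6 of 7 Sertoli, 2 of 6 Leydig and 4 of 5 peritubular and blood marker genes (71.6% of all genes). These counts cannot check the cell label, because most genes carry H2A.Z and a peak is no measure of RNA. INO80 was not mapped in Ino80cKO cells, so the deletion itself could not be checked here.

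The promoters of 28 of the 44 genes were found in the RefSeq promoter table (assembly GRCm38.p6, the assembly named mm10), which runs from 250 bases before to 50 bases after a start. A selection is shown, 5′ to 3′ on the strand of the gene, as the extremes of INO80 cover: those of Foxf2, Foxp1 and Foxa1, which lie wholly within INO80 peaks, and those of Foxi1 and Foxp3, which touch no peak of any list. Capitals mark CG dinucleotides and, in Foxa1 alone, a match to the forkhead core motif GTAAACA.
Foxf2, chr13:31625566-31625865, plus strand: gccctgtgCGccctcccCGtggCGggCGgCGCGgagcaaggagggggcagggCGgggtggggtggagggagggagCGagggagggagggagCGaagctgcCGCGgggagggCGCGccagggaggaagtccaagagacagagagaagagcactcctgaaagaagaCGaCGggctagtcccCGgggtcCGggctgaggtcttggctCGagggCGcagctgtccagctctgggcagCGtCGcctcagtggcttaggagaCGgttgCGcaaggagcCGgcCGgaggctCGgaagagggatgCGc
Foxp1, chr6:99520944-99521243, minus strand: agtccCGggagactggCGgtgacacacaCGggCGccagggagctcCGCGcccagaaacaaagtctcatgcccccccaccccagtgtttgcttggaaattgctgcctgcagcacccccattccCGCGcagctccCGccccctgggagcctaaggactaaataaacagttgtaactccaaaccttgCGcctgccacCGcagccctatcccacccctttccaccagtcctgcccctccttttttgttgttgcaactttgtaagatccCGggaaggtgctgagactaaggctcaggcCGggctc
Foxa1, chr12:57546062-57546361, minus strand: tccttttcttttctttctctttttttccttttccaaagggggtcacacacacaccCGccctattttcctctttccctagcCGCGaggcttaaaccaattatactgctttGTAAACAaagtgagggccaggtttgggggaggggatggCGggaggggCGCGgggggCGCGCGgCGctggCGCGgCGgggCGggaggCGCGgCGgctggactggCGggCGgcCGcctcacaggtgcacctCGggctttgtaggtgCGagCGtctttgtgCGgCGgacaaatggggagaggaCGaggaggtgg
Foxi1, chr11:34208040-34208339, minus strand: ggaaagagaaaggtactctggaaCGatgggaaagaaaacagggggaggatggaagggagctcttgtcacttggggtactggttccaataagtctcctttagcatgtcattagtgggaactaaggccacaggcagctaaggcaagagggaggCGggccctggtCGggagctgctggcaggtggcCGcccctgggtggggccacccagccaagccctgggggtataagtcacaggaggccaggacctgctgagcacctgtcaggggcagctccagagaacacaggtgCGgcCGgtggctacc
Foxp3, chrX:7579426-7579725, plus strand: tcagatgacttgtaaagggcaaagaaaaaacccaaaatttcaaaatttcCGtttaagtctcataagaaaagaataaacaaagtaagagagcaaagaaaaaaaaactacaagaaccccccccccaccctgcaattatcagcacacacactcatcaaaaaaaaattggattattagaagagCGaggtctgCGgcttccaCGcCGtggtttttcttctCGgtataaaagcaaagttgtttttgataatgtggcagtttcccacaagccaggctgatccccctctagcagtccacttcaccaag
These promoters hold 27, 13, 26, 6 and 6 CG dinucleotides in the order shown. The first 3 belong to genes with 6772, 6145 and 5345 bp of INO80 cover in their windows.

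INO80 was found at 39 of the 44 forkhead genes (88.6%, 76 to 95%), where 61.4% of all protein-coding genes had an INO80 peak by the same rule. The windows of 33 of the 44 touch no other protein-coding gene. The other windows reach a neighbouring gene, among them those of Foxa1, Foxa3, Foxh1, Foxj1, Foxj2, Foxj3, Foxm1, Foxn3, Foxo4 and Foxp3. A peak in such a window can also lie at the neighbour. The forkhead genes stood further from other genes in the width of their INO80 peaks: 14 of 44 (31.8%, 20 to 46.6%) had a peak of 3 kb or more, compared with 2.55% of all genes. The median INO80 cover of a forkhead window was 2540 bp (421 bp over all genes). At 8 of 44 genes 3 or more separate INO80 peaks were found (18.2%, 9.51 to 32%), compared with 4.61% of all genes.

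Forkhead genes are short, with a median length of 5194 bp (17169 bp over all genes), and 22 of them are under 5 kb. Among these short genes INO80 was found at 20 of 22 (90.9%, 72.2 to 97.5%), beside 34% of all genes under 5 kb, which have a median length of 1946 bp and the short forkhead genes one of 2884 bp. Of the 22 short genes 10 (45.5%) had an INO80 peak of 3 kb or more, beside 2.54% of all short genes. Among the 22 longer forkhead genes 19 (86.4%, 66.7 to 95.3%) had INO80, beside 69.6% of all genes of that length, and 4 (18.2%) had a peak of 3 kb or more, beside 2.56%. INO80 peaks covered a median of 45.22% of the windows of the short forkhead genes and 3.38% of those of the longer ones.

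H2A.Z was found in both genotypes at 39 forkhead genes (88.6%, 76 to 95%; 67.4% of all genes), in wild type only at 1 and in the knockout only at none, which allows up to 8.03% (4.17% and 0.631% of all genes). It was absent from both lists at 4 genes (9.09%; 27.8% of all genes). Counted by list, wild-type H2A.Z lay at 40 of 44 genes (90.9%, 78.8 to 96.4%; 71.6% of all genes) and knockout H2A.Z at 39 (88.6%; 68% of all genes). INO80 covered more sequence than wild-type H2A.Z at 30 of the 38 genes with both (78.9%, 63.7 to 88.9%; 45.6% of all genes), and at 18 of 19 such genes under 5 kb (94.7%; 59.3% of all genes of that length). The median ratio of INO80 to wild-type H2A.Z cover was 1.36 per forkhead gene and 0.82 over all genes with wild-type H2A.Z.

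**Figure D1:**
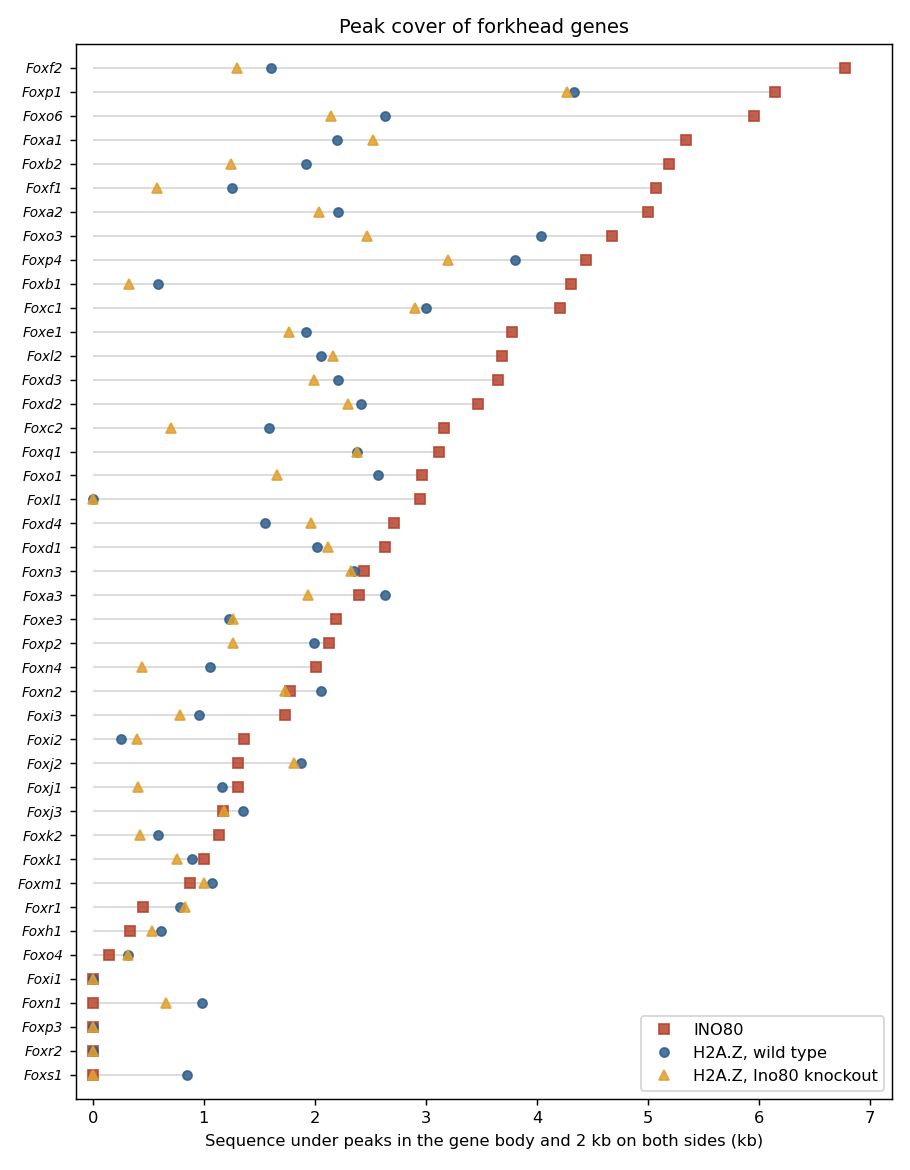
Sequence under peaks (x axis, kb) in the windows of the forkhead genes, all but 1 shown (rows, ordered by INO80 cover), with squares for INO80, circles for wild-type H2A.Z and triangles for knockout H2A.Z, 1 peak list each. INO80 ranges from 0 bp at 5 genes to 6772 bp at Foxf2, and at most genes the INO80 square stands to the right of both H2A.Z marks.

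The genes of endoderm and liver, Foxa1, Foxa2 and Foxa3, all carried the 3 marks. At Foxa1, a pioneer factor of liver, prostate and breast, INO80 covered 5345 bp in 4 peaks, wild-type H2A.Z 2199 bp and knockout H2A.Z 2523 bp. At Foxa2, which patterns endoderm and the floor plate of the neural tube, the cover was 4995 bp, 2208 bp and 2039 bp. Foxa3, a hepatic relative, had 2399 bp of INO80, 2636 bp of wild-type and 1938 bp of knockout H2A.Z. INO80 thus covered more bp than wild-type H2A.Z at Foxa1 and Foxa2 but not at Foxa3.

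Of the 8 mesodermal genes 7 had INO80 (61.4% of all genes) and 4 had an INO80 peak of 3 kb or more (2.55%), with a median INO80 cover of 3318 bp. Foxf2, which acts in the palate and in brain pericytes, had 6772 bp of INO80 and 1601 bp of wild-type and 1300 bp of knockout H2A.Z. Its widest INO80 peak (chr13:31624861-31631113, 6253 bp) spanned nearly the whole gene body, and ranked 24 by width among the 13439 genes with INO80. Foxf1, needed for lung and gut mesenchyme, had 5069 bp of INO80, 1250 bp of wild-type and 581 bp of knockout H2A.Z. INO80 covered 4.23 times as many bp as wild-type H2A.Z at Foxf2 and 4.06 times as many at Foxf1. Foxc1 and Foxc2, which act together in blood vessels and the eye, had 4204 bp and 3167 bp of INO80. Both had less H2A.Z in the knockout, by unlike amounts: Foxc1 had 2997 bp in wild type and 2902 bp in the knockout, and Foxc2 1590 bp and 702 bp. Foxd1, a gene of kidney stroma, had 2633 bp of INO80 and near-equal H2A.Z in wild type (2019 bp) and knockout (2121 bp). Foxd2, another mesenchymal factor, had 3469 bp of INO80 with 2412 bp and 2302 bp of H2A.Z.

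Foxl1 and Foxs1 were the exceptions of the mesodermal group. Foxl1, a factor of the gut mesenchyme, had 3 INO80 peaks covering 2944 bp, the widest of them 2039 bp (chr8:121127401-121129439), and no H2A.Z peak of either genotype. It was the only one of the 39 forkhead genes with INO80 to lack H2A.Z (2.56%; 1.82% of all genes with INO80). Foxs1, a vessel-associated gene, had no INO80 peak and 1 wild-type H2A.Z peak of 852 bp (chr2:152932218-152933069) within its 1311 bp gene body, with no knockout peak nearer than 9.9 kb. It was the single gene of wild-type-only H2A.Z.

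All 8 neural and sensory genes had INO80 (61.4% of all genes), from 2007 bp at Foxn4 to 5185 bp at Foxb2, and 3 had a peak of 3 kb or more (2.55%). The widest INO80 peak of any forkhead gene lay at Foxb2, a gene of the embryonic neural tube and the shortest but 1 of the family at 1515 bp. This peak (chr19:16870646-16877391, 6746 bp) ranked 17 among the 13439 genes with INO80 and reached beyond the Foxb2 window, and H2A.Z covered 1917 bp of that window in wild type and 1245 bp in the knockout. At Foxb1, which acts in the hypothalamus, INO80 covered 4303 bp and H2A.Z only 585 bp in wild type and 329 bp in the knockout, an INO80 to H2A.Z ratio of 7.36, the highest of the family. Foxd3, a neural crest and stem cell factor, had an INO80 peak of 2956 bp just before the gene (chr4:99652359-99655314) that overlapped no H2A.Z peak, and a second of 2629 bp over the gene that did. At the lens gene Foxe3 INO80 covered 2189 bp and H2A.Z 1230 bp and 1266 bp. At Foxd4, Foxn4 and Foxp2 INO80 covered 2007 to 2712 bp.

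The 6 genes of ectoderm, thymus and thyroid were split. INO80 covered 3771 bp at Foxe1, the thyroid factor, and 3117 bp at Foxq1, known for its role in hair, with 1730 bp at Foxi3 and 1359 bp at Foxi2. Foxe1 had 1923 bp of wild-type and 1764 bp of knockout H2A.Z, and Foxq1 2379 bp and 2383 bp. Foxi1, which acts in the inner ear and kidney, had no peak of any list in its window, and the nearest INO80 peak lay 211.2 kb away. Foxn1, the gene of nude mice and a regulator of thymic epithelium, had no INO80 and 2 small H2A.Z peaks inside the gene, 987 bp in wild type and 658 bp in the knockout. The nearest INO80 peak lay 10.3 kb from it.

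Among genes tied to gonads, germ cells, cilia, cell division or blood, those described next had from 0 to 3682 bp of INO80 and from 0 to 2055 bp of wild-type H2A.Z. Foxl2, which maintains the ovary, had 3682 bp of INO80 with a peak of 3428 bp (chr9:98954044-98957471), and 2055 bp and 2165 bp of H2A.Z. Foxr1 and Foxr2 are less studied relatives. Foxr1 had 456 bp of INO80 and 790 bp and 835 bp of H2A.Z, whereas Foxr2 on the X chromosome had no peak of any list in its window, the nearest being a wild-type H2A.Z peak 6.9 kb away. Foxj1, the master factor of motile cilia, had 1307 bp of INO80 and 1160 bp of wild-type H2A.Z, with 405 bp in the knockout, in a window that touches the neighbouring gene Rnf157. Foxm1, which drives genes of the G2 and M phases, had 876 bp of INO80 and 1075 bp and 1003 bp of H2A.Z, in a window that touches 2 neighbouring genes. Foxh1, a partner of SMAD proteins in Nodal signalling, had 338 bp of INO80 and 614 bp and 537 bp of H2A.Z, in a window that touches 2 neighbouring genes. Foxp3, the factor of regulatory T cells, had no peak of any list in its window, and the nearest peaks of all 3 lists lay together 5.4 kb away.

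All 13 genes listed as broadly expressed, Foxo6 of the brain among them, had INO80 and H2A.Z of both genotypes (61.4%, 71.6% and 68% of all genes). Each of the 13 is 5 kb or longer, and among all genes of that length the shares were 69.6%, 81.3% and 77.7%. Their median INO80 cover was 1773 bp (151 to 6145 bp). Foxp1, a large gene with roles in heart, lung and lymphocytes, led with 6145 bp of INO80 and had the most H2A.Z of the family in both genotypes, 4334 bp and 4270 bp. Its relative Foxp4 had 4438 bp of INO80 in 6 peaks and 3799 bp and 3195 bp of H2A.Z. Foxj2 and Foxj3, which are expressed in spermatogenic cells, had 1308 bp and 1172 bp of INO80. H2A.Z covered 1876 bp and 1813 bp at Foxj2, and 1354 bp and 1183 bp at Foxj3. In contrast with most short developmental members, INO80 covered fewer bp than wild-type H2A.Z at Foxj2, Foxj3, Foxm1, Foxn2 and Foxo4.

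The 4 FoxO genes spanned nearly the whole range of INO80 cover, from 151 to 5952 bp. At Foxo1, H2A.Z went from a single wild-type peak of 2570 bp to 3 knockout peaks of 485, 1011 and 163 bp, under 2969 bp of INO80. At Foxo3, which holds primordial follicles of the ovary dormant, the wild-type peak at the gene start was 3723 bp wide (chr10:42274962-42278684) and 3 knockout peaks of 770, 933 and 768 bp lay over it. INO80 covered 4671 bp of the Foxo3 window and H2A.Z 4032 bp in wild type and 2471 bp in the knockout. The X-linked Foxo4 had the least cover of any forkhead gene with INO80: 151 bp, with 315 bp and 321 bp of H2A.Z. Its INO80 peak was near the smallest width in the INO80 list, which was 147 bp. Foxo6, a FoxO gene of the brain, had 5952 bp of INO80 and 2636 bp and 2146 bp of H2A.Z. The ratio of knockout to wild-type cover was 0.61 at Foxo3, 0.65 at Foxo1, 0.81 at Foxo6 and 1.02 at Foxo4.

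The pathway that controls FoxO factors and their targets was read from a list of 37 genes, which included receptors and ligands (Kit, Kitl, Ret, Gdnf), kinases (Akt1, Sgk1), 14-3-3 genes and germ cell targets. INO80 and H2A.Z of both genotypes lay at 37 of 37 (61.4%, 71.6% and 68% of all genes). The genes of the list are long, with a median of 49275 bp. Among all genes of 5 kb or more, the shares with these marks were 69.6%, 81.3% and 77.7%. Of the 37 genes 7 (18.9%) had an INO80 peak of 3 kb or more (2.55% of all genes). The most INO80 cover was seen at Lhx1, a target in spermatogonial stem cells (7171 bp), Irs1, an adaptor of insulin receptors (5497 bp), and Gdnf, the Sertoli cell ligand of stem spermatogonia (5204 bp). Knockout H2A.Z covered fewer bp than wild type at 28 of 37 (75.7%), beside 77.9% of all genes with H2A.Z. No gene of the list lacked INO80.

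Knockout H2A.Z covered fewer bp than wild-type H2A.Z at 31 of the 40 forkhead genes with H2A.Z (77.5%, 62.5 to 87.7%) and more at 9 (22.5%), and the shares over all genes were 77.9% and 21.9%. The summed cover in the knockout was 0.845 of that in wild type (0.78 over all genes), and the median ratio per gene was 0.87 (0.82 over all genes). The family thus stood near the background in the direction of this difference. At 5 genes the knockout had under 50% of the wild-type cover (12.5%; 17.6% of all genes with wild-type H2A.Z): Foxs1 with none, Foxj1 with a ratio of 0.35, Foxn4 with 0.42, Foxc2 with 0.44 and Foxf1 with 0.46. At the other end Foxi2 had 253 bp in wild type and 401 bp in the knockout, Foxd4 1552 bp and 1967 bp, and Foxa1 2199 bp and 2523 bp.

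**Figure D2:**
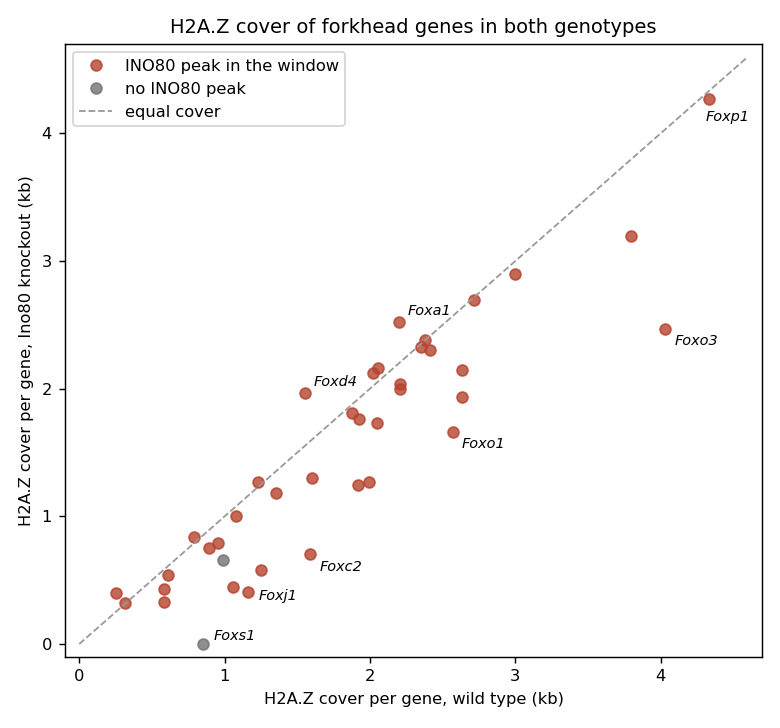
H2A.Z cover per forkhead gene in wild type (x axis, kb) and in the Ino80 knockout (y axis, kb) for the 40 genes with H2A.Z, red where the window holds an INO80 peak and grey where it does not, with a dashed line of equal cover. Below the line lie 31 genes, among them Foxo3 at 4032 bp and 2471 bp and Foxs1 at 852 bp and 0 bp, and 9 lie above it.

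Of 74 wild-type H2A.Z peaks at forkhead genes 61 overlapped a knockout peak (82.4%; 78.9% at all genes), and every wild-type peak had a knockout partner at 29 of the 40 genes (72.5%; 75% of all genes with wild-type H2A.Z). The 13 without a partner were narrow: 12 of the 28 peaks under 500 bp (42.9%; 43% at all genes), 1 of 16 peaks from 500 to under 1000 bp (6.25%; 6.05%), which was the Foxs1 peak, and none of 30 peaks of 1000 bp or more (0.53%). They lay at Foxa1, Foxa3, Foxb1, Foxf1, Foxf2, Foxl2, Foxn2, Foxo3, Foxp1, Foxp2 and Foxs1. INO80 lay on 65 of the 74 wild-type peaks (87.8%; 63.4% at all genes). Of these 65 peaks 56 had a knockout partner (86.2%; 91.3% at all genes), and of the 9 without INO80, 5 had one (55.6%; 57.3% at all genes). The 9 peaks without INO80 were 200 to 852 bp wide, and all 30 forkhead peaks of 1000 bp or more overlapped INO80 (95% at all genes). In the other direction a wild-type partner was found for 68 of 71 knockout peaks (95.8%; 95.2% at all genes), and the 3 that did not were peaks of 195 to 365 bp at Foxa1, Foxd4 and Foxn3.

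Among the 30 wild-type peaks of 1000 bp or more, 5 were met by 2 or 3 separate knockout peaks (16.7%, 7.34 to 33.6%; 13.3% at all genes). These were the peaks of Foxo3 and Foxo1 described above, and those of Foxn4 (1058 bp, met by peaks of 147 and 299 bp), Foxc2 (1590 bp, by 458 and 244 bp) and Foxa3 (1719 bp, by 967 and 298 bp). Foxn4 is a gene of retinal and spinal interneurons. The knockout peaks covered 66.4% of the Foxo3 peak, 63.6% of the Foxo1 peak and 36.8% of the Foxn4 peak.

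Of 71 INO80 peaks at forkhead genes, 58 overlapped wild-type H2A.Z (81.7%; 86.2% at all genes), 52 knockout H2A.Z (73.2%; 81.3%) and 13 neither (18.3%; 12.7%). Of the 13 without H2A.Z, 6 lay at the Foxf1, Foxc2, Foxl1 cluster of chromosome 8 or at Foxf2, and the others at Foxa1, Foxb1, Foxd3, Foxi2, Foxl2 and Foxp4. Peaks of 3 kb or more made up 14 of the 71 (19.7%; 3.32% at all genes). Wild-type H2A.Z lay under a median of 54% of the length of these 14 peaks and knockout H2A.Z under 52.4% (39% and 30.2% for the 518 peaks of 3 kb or more at all genes). The H2A.Z share of these broad peaks ranged widely, from 14.7% in wild type and 8.27% in the knockout at Foxb1 to 93% and 94.8% at Foxp1. Low shares were also seen at Foxo6 (19.4% and 10.6%), Foxf1 (25.6% and 11.9%) and Foxf2 (25.6% and 20.8%).

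There are 3 groups of forkhead genes in which each gene lies within 200 kb of the next. The region from 10 kb before Foxf1 to 10 kb after Foxl1 (chr8:121074386-121140644) held 10 INO80 peaks over 22.2% of its sequence, 6 wild-type H2A.Z peaks over 6.2% and 4 knockout peaks over 2.64%. Of the 6 wild-type peaks here 3 overlapped a knockout peak (78.9% of peaks at all genes), and the cover was 4106 bp in wild type and 1746 bp in the knockout. Those without a partner were 223, 184 and 175 bp wide, and at all genes 43% of peaks under 500 bp had none. A wild-type peak of 907 bp between Foxf1 and Foxc2 was met by a knockout peak of 463 bp. Both lie outside the forkhead windows but count in the cover of the region, and another gene, Mthfsd, also lies between Foxf1 and Foxc2. A small wild-type peak of 175 bp (chr8:121125431-121125605) lay just outside the Foxl1 window, under an INO80 peak that reaches into it, so the lack of H2A.Z at Foxl1 holds for the window of 2 kb and not for one of 5 kb.

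The region of Foxq1, Foxf2 and Foxc1 (chr13:31548170-31820635), which also reaches the gene Gmds, had nearer equal H2A.Z cover in both genotypes. Its 11 INO80 peaks covered 19152 bp, its 9 wild-type H2A.Z peaks 8105 bp and its 9 knockout peaks 7459 bp, and 8 of the 9 wild-type peaks overlapped a knockout peak. Of the INO80 peaks 6 lay outside the windows of the 3 genes, among them one of 2741 bp before Foxf2 (chr13:31618536-31621276) with only 170 bp of wild-type H2A.Z at its edge. The smaller region of Foxd2 and Foxe3 on chromosome 4 (chr4:114896280-114936067) held 3 INO80 peaks, of which one of 2299 bp downstream of Foxd2 overlapped no H2A.Z, and 2 H2A.Z peaks in each genotype. The H2A.Z cover there was 3642 bp in wild type and 3568 bp in the knockout.

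**Figure D3:**
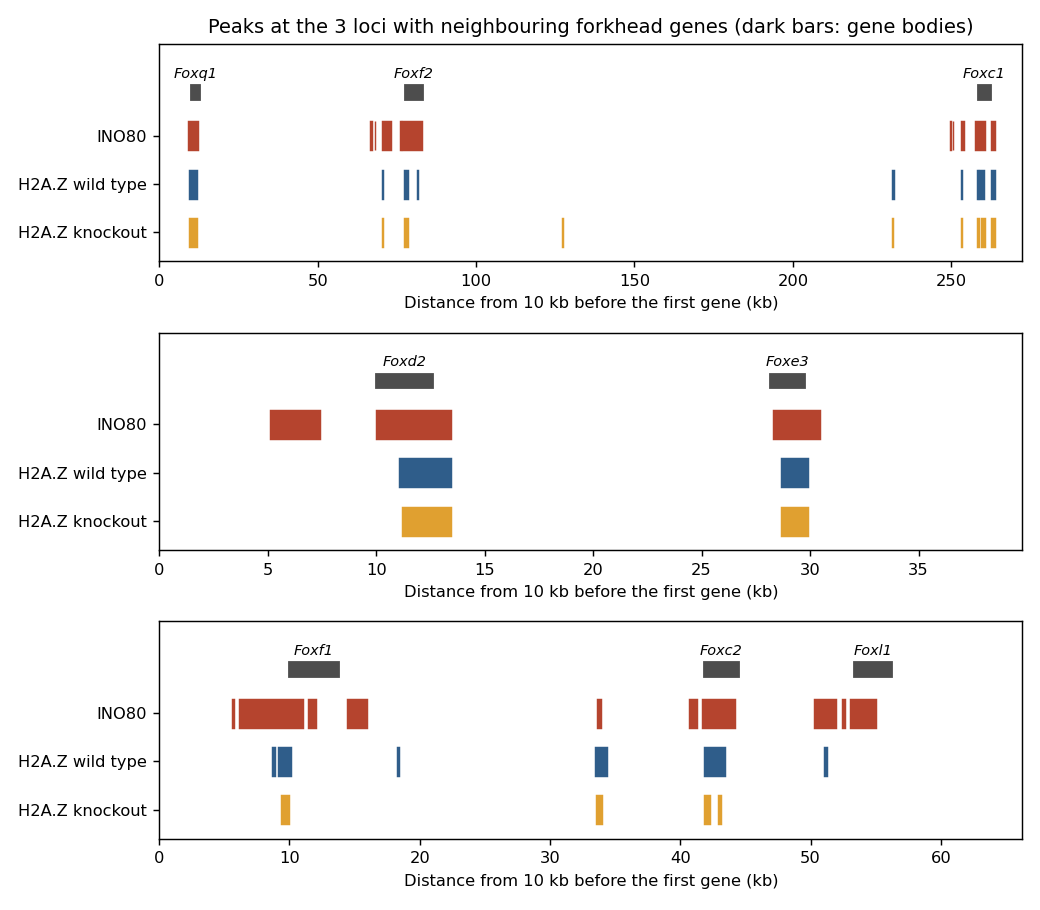
Peaks of the 3 lists (rows) along the 3 regions with neighbouring forkhead genes, as distance in kb from 10 kb before the first gene, with gene bodies as dark bars. In the lowest panel knockout H2A.Z covers 1746 bp and wild-type H2A.Z 4106 bp, and in the other panels the H2A.Z rows are near equal.

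At the 28 genes with a promoter in the table, INO80 lay on 23 promoters (82.1%, 64.4 to 92.1%; 45.8% of 17492 promoters of all genes), wild-type H2A.Z on 22 (78.6%; 53.6%) and knockout H2A.Z on 18 (64.3%; 47%). Wild-type H2A.Z reached the 300-base promoter and knockout H2A.Z did not at Foxa2, Foxb2, Foxd4, Foxn4 and Foxo1 (17.9%, 7.88 to 35.6%; 7.91% of all promoters), and the reverse held at Foxi2 (3.57%; 1.31%). All 5 of these genes had knockout H2A.Z elsewhere in the window. The wild-type peak reached only 41 of the 300 bases at Foxa2, 86 at Foxb2 and 125 at Foxd4. A second promoter of Foxa2 was covered over all 300 bases in both genotypes. At Foxn4 and Foxo1 the wild-type peak covered all 300 bases, whereas the knockout peaks, 3 of them at Foxo1, left the promoter bare. For genes with several starts the outermost one was used, and for Foxn3 and Foxr2 the table holds no start near the end of the annotated gene.

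Around the start, INO80 was spread far more widely at forkhead genes than at genes in general. At the start itself 82.1% of the 28 genes were under an INO80 peak (37.3% of all genes), at 1 kb downstream of it 50% (12.6%), and at 2 kb downstream 35.7% (3.13%). For the shortest genes, such as Foxb2, the position at 2 kb lies past the end of the gene. The genes compared were not matched by length. H2A.Z reached less far than INO80, but it too lay 1 kb downstream more often at forkhead genes than at genes in general. Median peak widths at forkhead genes were 1308 bp for INO80 (728 bp at all genes) and 775.5 bp for wild-type H2A.Z (573 bp). For knockout H2A.Z the median was 697 bp (503 bp at all genes). Wild-type H2A.Z covered the position 1 kb downstream of the start at 42.9% of forkhead genes (6.35% of all genes) and knockout H2A.Z at 39.3% (4.8%). At 2 kb downstream wild-type H2A.Z covered none of the 28 (1.31%) and knockout H2A.Z 1 (3.57%; 0.886%). Within 2 kb of the start, 17 of 28 genes (60.7%; 43.7% of all genes) had more INO80 downstream than upstream and 4 (14.3%; 11.9%) the reverse, with medians of 1228.5 bp downstream and 670 bp upstream. For wild-type H2A.Z the counts were 18 (64.3%; 44.8%) and 5 (17.9%; 19.3%), and for knockout H2A.Z 17 (60.7%; 43.4%) and 6 (21.4%; 17.4%). All these shares include genes with equal or no cover on both sides, 7 of 28 for INO80 and 5 for each H2A.Z list. They therefore also follow how many genes have a peak near the start, and do not show a stronger lean to 1 side at forkhead genes.

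**Figure D4:**
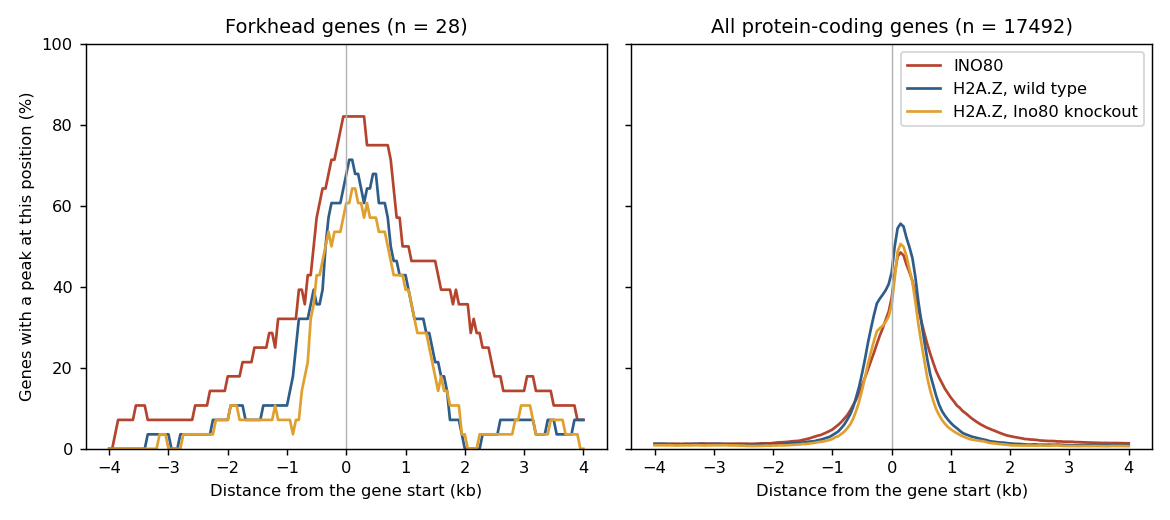
Percentage of genes (y axis) with a peak at each position from 4 kb before to 4 kb after the gene start (x axis, kb), for 28 forkhead genes (left) and 17492 protein-coding genes (right), one line per peak list. At 2 kb after the start INO80 covers 35.7% of the forkhead genes and 3.13% of all genes, and the H2A.Z lines have dropped to near 0 in both panels.

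The promoters of forkhead genes were rich in CG dinucleotides. The median was 22 per promoter (3 to 59), and 13 over all promoters. The 23 forkhead promoters with INO80 had a median of 26 and the 5 without it, those of Foxi1, Foxn1, Foxn3, Foxp3 and Foxr2, had 3 to 8 (medians of 24 and 4 over all promoters with and without INO80). The 2 sets overlapped only through Foxi2, with 5. Across the 28 genes the CG count was weakly related to the INO80 cover of the window (Pearson r = 0.18, Spearman rho = 0.28; 0.42 and 0.65 across 17492 genes, which share the libraries and differ in length). Foxk2 had the most CG dinucleotides, 59, with 1137 bp of INO80, and Foxb2 had 10 with 5185 bp. The forkhead core GTAAACA, searched on both strands, was found in 1 of 28 promoters, that of Foxa1 (3.57%; 2.93% of all promoters), and AAGATGG, a core of sites for YY1, a subunit of the INO80 complex, in none (6.35% of all promoters). A match is a description of these letters and not a bound site.

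**Figure D5:**
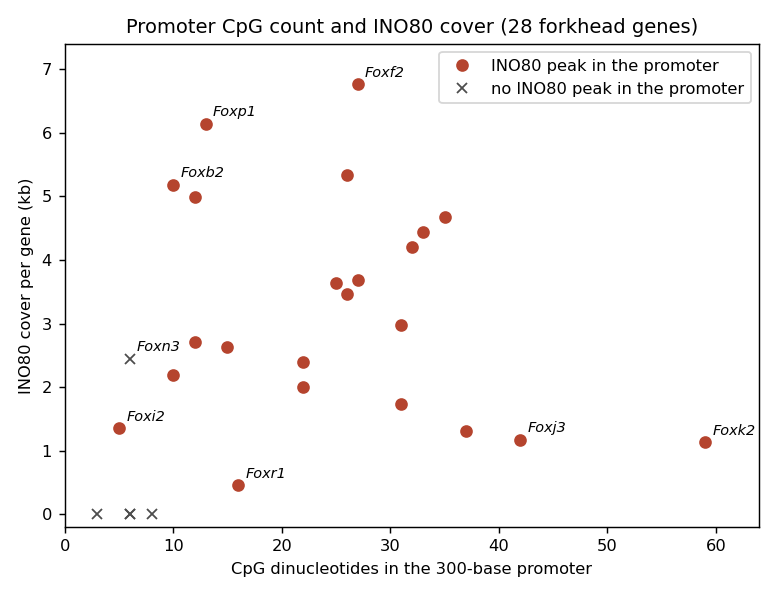
CG dinucleotides in the 300-base promoter (x axis) and INO80 cover of the gene window (y axis, kb) of 28 forkhead genes, with circles where INO80 lies on the promoter and crosses where it does not. All 5 crosses stand at 8 CG dinucleotides or fewer, and the circles range from 5 (Foxi2) to 59 (Foxk2).

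Wide INO80 peaks were not limited to the forkhead family. Of 19 Sox genes, 16 T-box genes and 6 Gata genes, which also encode developmental transcription factors, 7 (36.8%), 4 (25%) and 4 (66.7%) had an INO80 peak of 3 kb or more (31.8% of forkhead genes, 2.55% of all genes). INO80 lay at 19 of 19, 13 of 16 and 5 of 6 of them, with a median cover of 2839, 3000 and 4951 bp, compared with 2540 bp at forkhead genes. The median ratio of knockout to wild-type H2A.Z cover was 0.83 for Sox, 0.84 for T-box and 0.68 for Gata genes, and 0.87 for forkhead genes. None of these differences between families was tested.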

How the data were processed

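ChIP-seq of INO80 and H2A.Z was done in spermatogenic cells of postnatal day 18 mouse testes. The authors deposited 3 peak lists, 1 for each ChIP group, with chromosome, start and end and no score. Per the submitters' processing notes, Bowtie2, SAMtools, deepTools, MACS2 and the build mm10 were used, with no versions named. Not given in the sources used here are the peak threshold, the control and how both libraries of each group were joined. Whether a peak is listed depends on them and on depth. Input libraries were not analysed here. Some single genes are counted but not reported by name here.

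Genes were the protein-coding entries of the NCBI RefSeq table of GRCm38.p6 on chromosomes 1 to 19, X and Y, which gives no strand. Starts and strands came from its promoter table. A peak counted for a gene when at least 1 bp lay in the gene body or 2 kb on either side, and cover is the sequence of the window under peaks. Peaks of 2 lists were called overlapping from 1 bp. The same counts over all genes, and over genes under 5 kb or of 5 kb or more, served as background. Peaks shared by neighbouring genes count for each gene but once per list in counts of peaks.

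The members, the gene lists and the role groups were chosen with earlier results of these data known. Values in full were given for the 12 genes with the most INO80 cover, all genes without INO80, with H2A.Z in 1 genotype or within 200 kb of another member, and those tied to gonads, germ cells, cilia, the cell cycle or blood. From the FoxO list the 3 with the most INO80 cover were named. Genes named for a changed, split or missing H2A.Z peak outside this rule were picked after their values were seen. Alternatives were other windows, an overlap of 50% of the peak, the widest 50% of each list, a wild-type list cut to the knockout list's length and genes with no neighbour in the window. Values were computed under Python 3.11.15 with pandas 2.3.3, numpy 2.4.6, matplotlib 3.10.9 and scipy 1.17.1. Overlaps were tested on simulated data and checked against bedtools 2.31.1.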

Additional observations from a re-analysis of the deposited data

How the results depend on the processing

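Of 72 values recomputed (9 results under 8 settings), 65 stayed within the counting interval of the reported value or within 1.5 times it, and 7 moved. With the gene body alone the median INO80 cover was 1646 bp (296 bp over all genes). In that setting 89.1% of INO80 peaks overlapped wild-type H2A.Z (49 of 55), beside 87.6% at all genes. The reported 81.7% lay below the 86.2% at all genes, so the direction of this contrast depends on the window. Within 2 kb of the start, which 28 genes allow, no gene had wild-type-only H2A.Z, since Foxs1 is not in the promoter table (0%, 0 of 28; 3.88% of all genes), and 96.6% of wild-type H2A.Z peaks had a knockout partner (28 of 29; 88.2%). Asking for an overlap of 50% of the peak left 59.7% of INO80 peaks with wild-type H2A.Z (40 of 67; 70.5%). With the widest 50% of each list knockout H2A.Z lay at 70.5% of forkhead genes (31 of 44; 50.1%). With the wild-type list shortened by width to the length of the knockout list, 91.8% of its peaks had a knockout partner (56 of 61; 87.7%). H2A.Z in wild type only, found at 1 gene as reported (2.27%), was found at 3 genes with the gene body alone (6.82%; 5.12% of all genes), at 2 with 5 kb on both sides (4.55%; 4%) and at 4 with the widest 50% of each list (9.09%; 9.39%). The share of forkhead genes with INO80 ranged from 81.8 to 88.6% over the settings (38.3 to 63.3% of all genes). The ratio of knockout to wild-type cover ranged from 0.826 to 0.884 (0.765 to 0.824 over all genes). No paired analysis was possible because each group is 1 peak list without replicate values, and for the same reason no replicate could be left out. The unknown depth limits every presence or absence call, above all for peaks under 500 bp.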
